A study of Arabidopsis thaliana with 12 samples.

Results

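The ascorbate peroxidase family of *Arabidopsis* was followed across WT and *cry1* seedlings at 22°C and 44°C. Its 8 genes were listed by gene identifier, with earlier results of these data known. They were *APX1* (AT1G07890), *APX2* (AT3G09640), *APX3* (AT4G35000), *APX4* (AT4G09010), *APX5* (AT4G35970), *APX6* (AT4G32320), *sAPX* (AT4G08390) and *tAPX* (AT1G77490). All 8 were among the 26891 genes of the deposited table and among the 20516 that held enough counts to be tested. Whole seedlings of ecotype Columbia were used, 8 days old by the sample labels. They were kept in continuous light at 22°C with 7 days of white light by the labels (the methods give a shorter period) and 1 day of blue light, so all groups share the blue light. The groups were WT at 22°C (mock), WT after 2 h at 44°C (heat stress), the *cry1* mutant at 22°C and the *cry1* mutant after 2 h at 44°C, with 3 libraries each and 12 in all. The *cry1* mutant carries a disrupted gene for the blue-light receptor cryptochrome 1, and the labels do not name its allele.

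Ascorbate peroxidases reduce hydrogen peroxide to water with ascorbate as the electron donor, and the oxidised ascorbate is recycled by monodehydroascorbate reductases, dehydroascorbate reductases and glutathione reductases. The isoforms sit in separate compartments, which lets a cell handle peroxide close to where photosynthesis, photorespiration or stress makes it. *APX2* is widely used as a marker of heat and high light, and its promoter is known to be bound by heat shock factors such as HSFA2.

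*APX1*, *APX2* and *APX6* encode cytosolic proteins, *APX3* and *APX5* peroxisomal ones, *sAPX* a protein of the chloroplast stroma that is also sent to mitochondria, *tAPX* a protein of the thylakoid membrane, and *APX4* (also TL29) a thylakoid lumen protein of the family that is not known to act as a peroxidase. In the TAIR10.1 annotation *APX2* lies on chromosome 3 (2956156 to 2958330, plus strand) and *APX1* on chromosome 1 (2437281 to 2439665, plus strand). *APX4* lies on chromosome 4 (5777397 to 5779572, minus strand), 50.1 kb from *CRY1*, and overlaps AT4G09000 and an antisense RNA, AT4G05690, on the opposite strand. *APX5* (chromosome 4, 17028586 to 17030558) overlaps AT4G35980 on the opposite strand. The labels and methods do not say whether counting used strand, and without it the reads of overlapping genes cannot be told apart. The most alike coding sequences were those of *sAPX* and *tAPX* (77.9% identical bases), *APX1* and *APX2* (72.7%) and *APX3* and *APX5* (69.9%). How reads shared by such pairs were split was not tested.

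The 250 bases before the annotated start of each gene were searched for letters that heat shock factors and bZIP or bHLH factors are known to favour. These were the 2-unit heat shock element (GAANNTTC or TTCNNGAA), its 3-unit form (the same letters followed by NNGAA or NNTTC) and the G-box (CACGTG), on both strands. *APX2* held 2 of the 2-unit elements, whose first bases lie 148 and 61 bases before the start, and a G-box at 204. *APX1* held 1 such element at 116 and *APX5* 1 at 219, and *APX3* held a G-box at 49. The 3-unit form was in none of the 8 windows. Among 27443 windows of the same length, 1 for each nuclear protein-coding gene, 16.1% held a 2-unit element, 0.386% the 3-unit form and 6.49% a G-box. A 2-unit element is contained in each 3-unit one. Adding the 50 bases after the start gave the same matches in the 8 genes, with 19.3%, 0.481% and 7.68% of all windows holding the 3 motifs. The windows of *APX2*, *APX1* and *APX5* are printed because they hold the elements in a gene silent at 22°C, in the most abundant member and in a scarce one. They run 5′ to 3′ on the gene's own strand in TAIR10.1 (RefSeq), at chr3:2955906-2956155, chr1:2437031-2437280 and chr4:17028336-17028585, with the fixed letters of the motifs in capitals.
APX2: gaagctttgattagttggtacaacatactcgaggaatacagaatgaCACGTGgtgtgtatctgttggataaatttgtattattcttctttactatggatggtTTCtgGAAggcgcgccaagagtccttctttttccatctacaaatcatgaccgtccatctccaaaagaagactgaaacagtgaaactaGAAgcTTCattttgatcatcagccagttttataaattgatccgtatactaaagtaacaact
APX1: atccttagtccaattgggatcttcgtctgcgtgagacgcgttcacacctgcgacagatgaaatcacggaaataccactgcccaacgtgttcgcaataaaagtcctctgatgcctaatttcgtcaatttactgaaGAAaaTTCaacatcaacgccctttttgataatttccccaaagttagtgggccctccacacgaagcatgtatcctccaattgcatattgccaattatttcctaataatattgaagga
APX5: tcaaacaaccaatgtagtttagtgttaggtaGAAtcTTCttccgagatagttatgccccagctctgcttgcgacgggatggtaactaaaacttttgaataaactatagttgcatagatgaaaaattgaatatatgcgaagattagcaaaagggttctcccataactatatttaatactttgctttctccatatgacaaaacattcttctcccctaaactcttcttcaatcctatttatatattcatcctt
A match is a description of these letters and shows no bound factor.

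Levels are CPM (counts scaled to the same library total) for a gene across samples, and FPKM (CPM per kilobase of annotated exon) between genes. Library totals ranged from 10539271 to 21752824 counts, and the *cry1* libraries were the deeper ones. *CRY1* stood at 151 to 226 CPM in the WT libraries and at no more than 0.260 CPM in the *cry1* libraries, which fits each library's label. Heat moved the bulk of the transcriptome on this scale: the median gene changed by -0.91 log2 units in WT and -1.29 in *cry1*, against -0.09 and -0.11 with TMM scaling (trimmed mean of M-values, which centres most genes near 0). *cry1* against WT, the median was 0.25 at 22°C and -0.10 at 44°C, against 0.02 and 0.03 with TMM. Changes are therefore given on library totals, with TMM values for the members and list counts that depend on the scaling. Replicate 1 of *cry1* at 22°C stood apart from its replicates by chi-square per gene, with 9.92 and 14.1 against 4.65 to 7.21 for the other pairs within groups. This chi-square grows with depth, and that library was the deepest (21752824 counts). By Pearson r of log2(CPM + 1) its pairs gave 0.9909 and 0.9877, against 0.9925 for the other pair of its group. The WT pairs gave 0.9879 to 0.9904. In whole seedlings, fewer cells of a type and less RNA per cell cannot be told apart. The 7 green-tissue markers and the root marker *PYK10* were abundant in the 22°C libraries, as in whole seedlings. The root markers *COBL9*, *EXPA7*, *SCR* and *SHR* had group means of 6.74 to 20.3 CPM at 22°C, while *NRT2.1* held at most 2 counts in a library. All 5 tested root markers were lower with heat in both genotypes (edgeR adjusted p under 0.05), beside 64.7% and 76.0% of all genes. With TMM scaling 4 were lower in WT and 5 in *cry1*, beside 38.1% and 39.5%.

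*APX1* was the most abundant member per length in all 4 groups (294 ± 27.8 FPKM in WT at 22°C, mean ± SD, n = 3). In WT at 22°C it was followed by *APX4* (148 ± 11.3 FPKM) and *APX3* (144 ± 3.25 FPKM), whose ranges overlapped, and then by *sAPX* (35.1 ± 3.31), *tAPX* (26.6 ± 1.73), *APX6* (18.7 ± 0.565) and *APX5* (2.69 ± 1.52), each apart from its neighbours. *APX2* came last with 0.0252 FPKM. At 44°C *APX2* took the third place in WT (33.9 ± 2.53 FPKM), where its range overlapped that of *APX4* (29.7 ± 2.53). In *cry1* at 44°C it took the second place, level with *APX3* (94.6 ± 11.4 against 94.5 ± 6.25 FPKM). *APX5* was the last in both groups at 44°C. The level of the whole family, as a sum of CPM, was 1097 ± 30.9 in WT at 22°C, 867 ± 6.88 in WT at 44°C, 1168 ± 163 in *cry1* at 22°C and 934 ± 39.6 in *cry1* at 44°C (n = 3 each). These sums depend on the scaling and were not computed with TMM. With TMM scaling *APX1*, the largest part, was higher at 44°C by 0.91 log2 units in WT and 0.92 in *cry1*.

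The make-up of the family does not depend on the scaling, because shares are taken within a library. The chloroplast members (*sAPX*, *tAPX* and *APX4*) held 32.3% ± 2.07 (SD, n = 3) of the family's counts in WT at 22°C and 11.3% ± 0.559 in WT at 44°C. In *cry1* they held 21.8% ± 2.79 at 22°C and 7.82% ± 0.466 at 44°C. The cytosolic members held 49.96% ± 3.09, 70.9% ± 0.711, 63.7% ± 4.25 and 77.9% ± 1.29 in the same order. No groups overlapped in either share, and the highest cytosolic share in *cry1* at 22°C (68.6%, replicate 1) lay just under the lowest in WT at 44°C (70.5%). The peroxisomal members kept similar shares at both temperatures, 17.8% ± 1.06 and 17.8% ± 0.319 in WT and 14.5% ± 1.49 and 14.3% ± 0.952 in *cry1*. *APX2* alone made up 4.18% ± 0.326 of the family in WT at 44°C and 10.8% ± 0.989 in *cry1* at 44°C.

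**Figure D1:**
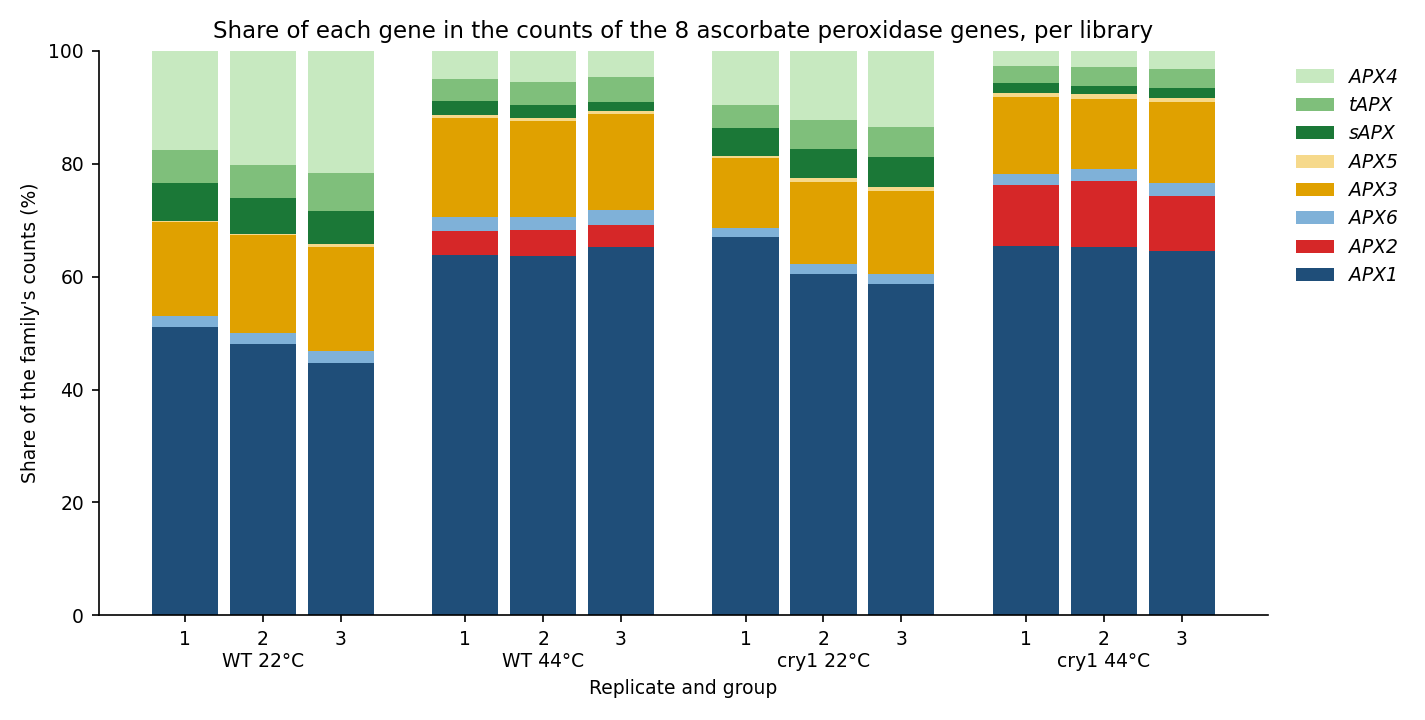
Share (%) of each of the 8 genes in the family's counts, 1 stacked bar for each of the 12 libraries, grouped by genotype and temperature. The green layers (*sAPX*, *tAPX*, *APX4*) take a mean of 32.3% in WT at 22°C and 7.82% in *cry1* at 44°C, and the red layer (*APX2*) shows only at 44°C.

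The response to heat was asked in each genotype by comparing 44°C with 22°C. In WT, 5 of the 8 members were called, where 80.8% of all tested genes were: 1 was higher (*APX2*) and 4 were lower (*APX3*, *sAPX*, *tAPX*, *APX4*) at an adjusted p under 0.05 (edgeR quasi-likelihood test, Benjamini-Hochberg over all genes tested). Of all tested genes, 16.1% were called higher and 64.7% lower in that comparison. In *cry1*, 6 members were called, where 87.9% of all genes were: 1 was higher and 5 were lower (the same 4 and *APX1*), beside 11.8% and 76.0% of all genes. The CPM ranges of the temperatures were apart for 5 members in each genotype, where they were for 81.4% of all genes in WT and 88.9% in *cry1*. With TMM scaling the members' counts became 5 higher and 2 lower in WT, and 6 higher and 2 lower in *cry1*, beside 35.6% higher and 38.1% lower of all genes in WT and 36.0% and 39.5% in *cry1*. *APX2*, *sAPX* and *APX4* kept their directions and calls in both genotypes under every alternative run, and the other members did not.

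**Figure D2:**
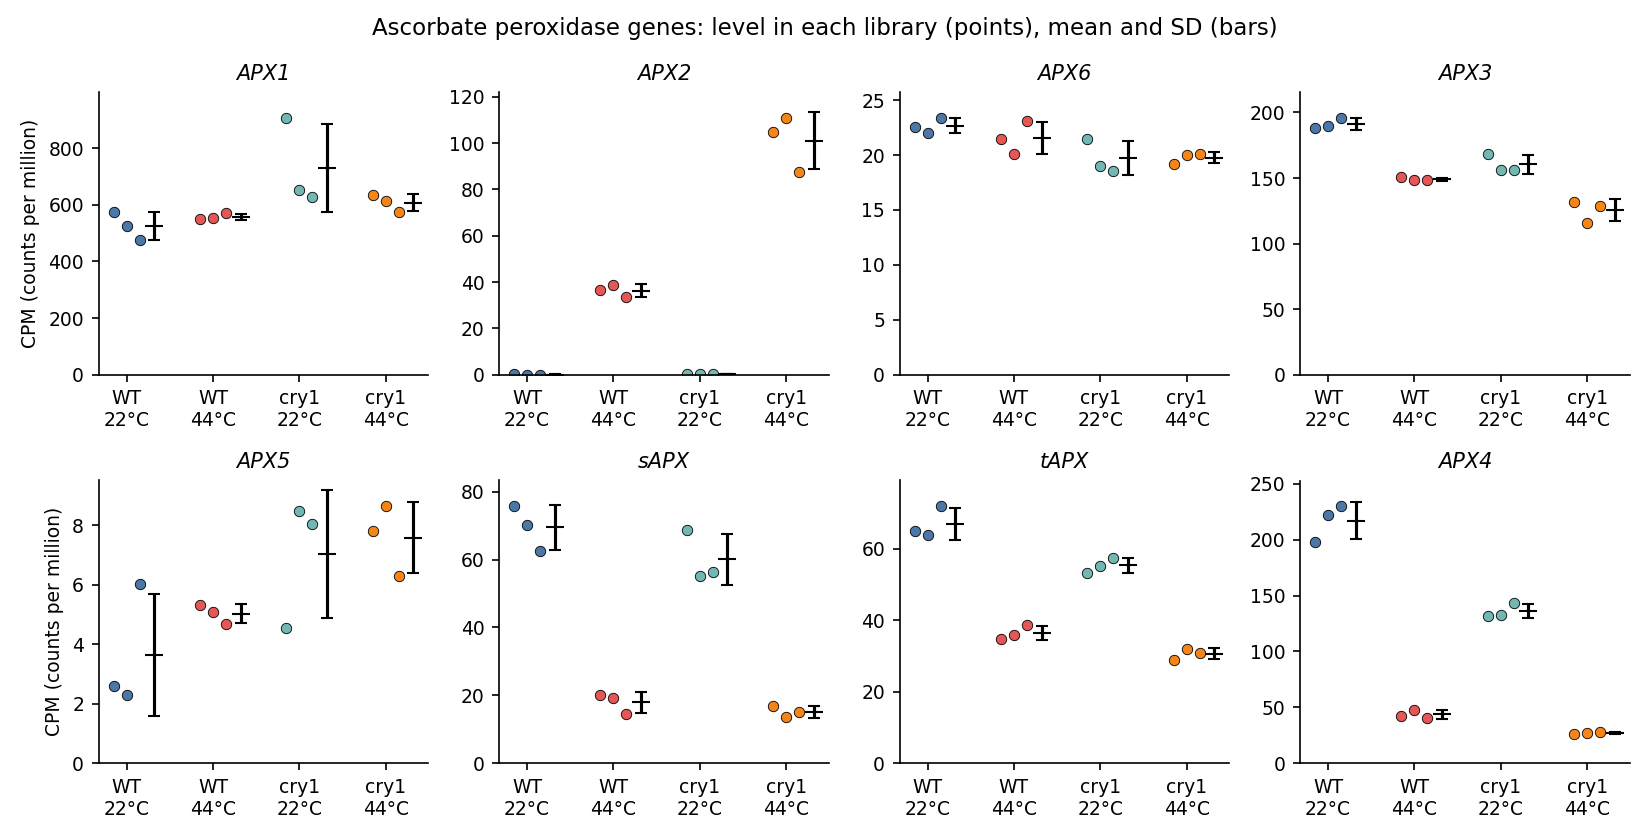
Level of each gene in CPM (vertical axis, from 0, a scale of its own for each gene) in the 12 libraries; points are libraries, and the bar beside them is the mean with its SD (n = 3). *APX2* sits near 0 at 22°C and reaches 33.5 to 38.9 CPM in WT and 87.4 to 111 CPM in *cry1* at 44°C, while *APX4* and *sAPX* drop at 44°C in both genotypes.

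*APX2*, the heat-inducible cytosolic isoform, was practically silent without heat. At 22°C it held 1, 0 and 0 counts in the WT libraries and 2, 2 and 2 in the *cry1* libraries, all under the 3 counts that a count of 0 allows. At 44°C its level was 36.4, 38.9 and 33.5 CPM in the WT libraries and 105, 111 and 87.4 CPM in the *cry1* libraries. Every library at 44°C was far above every library at 22°C, and every *cry1* library at 44°C was above every WT library at 44°C. Because of the few counts at 22°C, the rise is given as a ratio of pooled CPM with an exact 95% interval for counting error: 1430.1 (256 to 56534) in WT, from 1 to 1207 counts, and 1005 (462 to 2741) in *cry1*, from 6 to 4720 counts. The rise was called in both genotypes (edgeR adjusted p = 5.65e-17 in WT and 2.62e-19 in *cry1*).

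*APX1*, the main cytosolic isoform, stood at 575, 526 and 476 CPM in the WT libraries at 22°C and at 549, 553 and 570 CPM at 44°C. In *cry1* its level was 908, 653 and 627 CPM at 22°C and 634, 613 and 574 CPM at 44°C. The ranges of the temperatures overlapped in both genotypes, and replicate 1 of *cry1* at 22°C lay above all other libraries. The log2 fold change with heat in WT was 0.08 (95% interval -0.14 to 0.30, edgeR adjusted p = 0.5) and was called higher with TMM scaling (0.91, adjusted p = 4.06e-06). In *cry1* it fell by 0.26 on the log2 scale with library totals (SE 0.11, edgeR adjusted p = 0.0352), while with TMM scaling it was higher by 0.92 (adjusted p = 3.06e-06). Without replicate 1 of *cry1* at 22°C the *cry1* value was -0.08 (adjusted p = 0.411), and the call was also lost without replicate 2 (adjusted p = 0.0676) or 3 (0.114) of *cry1* at 44°C.

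*APX6*, the low cytosolic isoform, lies on chromosome 4 (15602721 to 15605400, plus strand) and stood at 18.6 to 23.4 CPM over all 12 libraries. Its ranges at 22°C and 44°C overlapped in both genotypes. The log2 fold change with heat was -0.07 in WT (95% interval -0.27 to 0.12) and 0.00 in *cry1* (-0.18 to 0.19) with library totals, and 0.75 and 1.19 with TMM scaling, where both were called (edgeR adjusted p = 1.09e-06 and 7.92e-10).

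*APX3*, the main peroxisomal isoform (chromosome 4, 16664724 to 16667721, minus strand), stood at 188, 189.5 and 196 CPM in WT at 22°C and at 151, 148 and 148 CPM at 44°C. In *cry1* it stood at 168, 156 and 156 CPM at 22°C and at 132, 116 and 129 CPM at 44°C. The ranges of the temperatures were apart in both genotypes. With library totals it fell by 0.36 on the log2 scale in WT (SE 0.07, edgeR adjusted p = 0.000114) and by 0.36 in *cry1* (adjusted p = 9.66e-05), a smaller drop than that of the median gene, and with TMM scaling it was instead higher by 0.46 and 0.83 (adjusted p = 4.88e-06 and 1.22e-09).

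*APX5*, the minor peroxisomal isoform, was scarce, at 2.31 to 8.64 CPM over all libraries. In WT it stood at 2.58, 2.31 and 6.01 CPM at 22°C and at 5.31, 5.10 and 4.67 CPM at 44°C, so that 1 library at 22°C lay above all those at 44°C. In *cry1* it stood at 4.55, 8.49 and 8.05 CPM at 22°C and at 7.80, 8.64 and 6.30 CPM at 44°C, with overlapping ranges. The log2 fold change was 0.48 in WT (95% interval -0.18 to 1.13) and 0.12 in *cry1* (-0.44 to 0.67). Neither was called with library totals, and both were with TMM scaling (1.299 in WT and 1.304 in *cry1*, edgeR adjusted p = 0.00246 and 0.000605). Without replicate 3 of WT at 22°C the WT value was 1.04 (adjusted p = 0.00289).

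*APX4*, the lumen protein, showed the largest drop of the 8 with heat. Its level was 198, 222 and 229.9 CPM in WT at 22°C and 42.4, 47.8 and 40.7 CPM at 44°C. In *cry1* it was 131, 133 and 143 CPM at 22°C and 26.3, 27.0 and 28.3 CPM at 44°C. No ranges overlapped. It fell 4.97-fold in WT (log2 fold change -2.31, SE 0.08, edgeR adjusted p = 2.14e-15) and in *cry1* by 2.32 on the log2 scale (SE 0.09, adjusted p = 1.74e-15), against 2.81-fold and 2.20-fold with TMM scaling.

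*sAPX*, the stromal and mitochondrial isoform (chromosome 4, 5314871 to 5317963, plus strand), stood at 75.8, 70.2 and 62.7 CPM in WT at 22°C and at 20.2, 19.1 and 14.5 CPM at 44°C. In *cry1* it stood at 68.7, 55.1 and 56.5 CPM at 22°C and at 16.8, 13.5 and 15.04 CPM at 44°C. The temperatures were apart in both genotypes. It fell 3.87-fold in WT (log2 fold change -1.95, SE 0.12, edgeR adjusted p = 2.59e-11) and 3.98-fold in *cry1* (-1.99, SE 0.12, adjusted p = 9.52e-12), and with TMM scaling by 2.19-fold and 1.75-fold.

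*tAPX*, its thylakoid-bound counterpart (chromosome 1, 29117500 to 29121093, plus strand), stood at 65.0, 63.7 and 71.9 CPM in WT at 22°C and at 34.6, 35.8 and 38.5 CPM at 44°C. In *cry1* it stood at 53.3, 55.2 and 57.5 CPM at 22°C and at 29.0, 31.9 and 30.9 CPM at 44°C. With library totals it fell by 0.88 on the log2 scale in WT (SE 0.08, edgeR adjusted p = 4.63e-09) and by 0.85 in *cry1* (adjusted p = 4.03e-09). With TMM scaling the WT value was -0.06 and not called (adjusted p = 0.556), and the *cry1* value was higher by 0.33 (adjusted p = 0.00115). Within a library, where scaling plays no part, *sAPX* held 872 to 1165 counts per 1000 *tAPX* counts in WT at 22°C and 376 to 584 at 44°C. In *cry1* the ratio was 983 to 1290 at 22°C and 422 to 579 at 44°C, so that in both genotypes *sAPX* gave way to *tAPX* at 44°C with no overlap between temperatures.

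**Figure D3:**
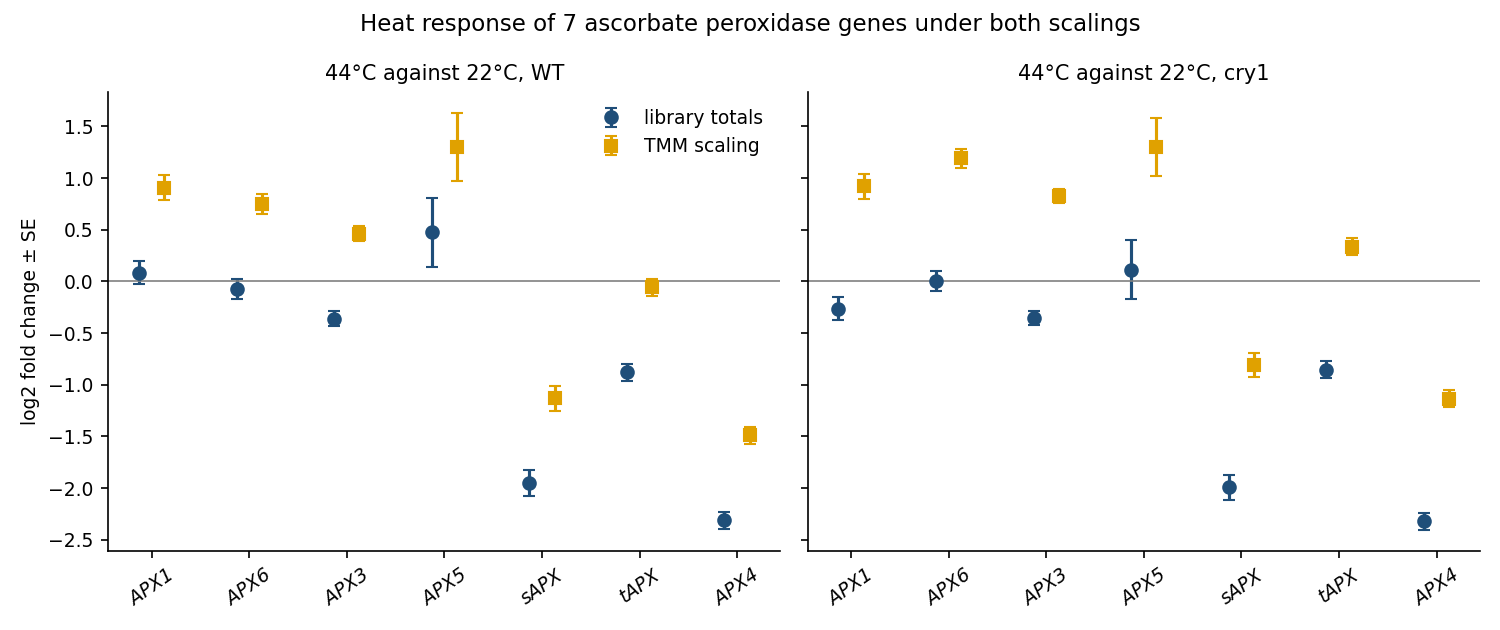
Log2 fold change with heat (44°C against 22°C, ± SE) of the 7 members other than *APX2*, in WT and in *cry1*, with library totals (circles) and with TMM scaling (squares). *sAPX* and *APX4* lie below 0 under both scalings, while *APX3* goes from -0.36 to 0.46 in WT and from -0.36 to 0.83 in *cry1*.

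Differences between the genotypes in blue light were asked by comparing *cry1* with WT at each temperature. With 1 mutant line, other features of the line and an effect of losing CRY1 cannot be told apart. At 22°C, 5 of the 8 members were called, where 40.9% of all tested genes were: 2 were higher in *cry1* (*APX1* and *APX5*) and 3 lower (*APX3*, *tAPX*, *APX4*), beside 33.0% of all tested genes higher and 7.91% lower. With TMM scaling no member was called higher and 5 were called lower (*APX3*, *APX4*, *APX6*, *sAPX*, *tAPX*), beside 8.41% higher and 13.6% lower of all genes. At 44°C, 4 members were called, where 27.5% of all genes were: 1 was higher (*APX2*) and 3 were lower (*APX3*, *tAPX*, *APX4*), beside 9.19% and 18.3% of all genes, and with TMM scaling 1 higher (*APX2*) and 1 lower (*APX4*), beside 14.8% and 11.5%. The CPM ranges of WT and *cry1* were apart for 6 members at 22°C, where they were for 55.7% of all genes, and for 7 at 44°C, where they were for 39.0%. These comparisons share their WT or *cry1* libraries with the heat comparisons.

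*APX2* was 2.79-fold higher in *cry1* than in WT at 44°C (log2 fold change 1.48, SE 0.10, edgeR adjusted p = 6.82e-09, higher in 3 of 3 libraries), and the value lay between 1.41 and 1.61 under all alternatives. Of all tested genes, 97.9% had a lower log2 fold change in that comparison. Per 1000 counts of *APX1* in the same library it held 66.4, 70.3 and 58.7 counts in WT and 166, 181 and 152 in *cry1* at 44°C. At 22°C the ratio of pooled CPM between *cry1* and WT was 3.96, with an exact 95% interval of 0.480 to 182 from 6 against 1 counts. The ranges were apart, the edgeR test did not call the difference (adjusted p = 0.221), and limma on log2(CPM + 0.1) did (0.72, adjusted p = 0.0312).

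*APX4* was lower in *cry1* at both temperatures, 1.60-fold at 22°C (log2 fold change -0.67, SE 0.08, edgeR adjusted p = 3.62e-06) and 1.61-fold at 44°C (-0.68, SE 0.09, adjusted p = 1.07e-05). With TMM scaling the values were -0.91 and -0.55, both called. *APX4* lies 50.1 kb from *CRY1*, and the part of a feature of the line at that locus was not tested. *tAPX* fell short of WT by smaller amounts, with a log2 fold change of -0.27 at 22°C (edgeR adjusted p = 0.00914) and -0.25 at 44°C (adjusted p = 0.033). With TMM scaling the *tAPX* difference was -0.51 at 22°C and was not called at 44°C (-0.12, adjusted p = 0.355). The *tAPX* call was lost at 22°C without replicate 3 of WT (adjusted p = 0.0558), and at 44°C without replicate 1 or 3 of *cry1* or replicate 2 or 3 of WT (adjusted p between 0.0508 and 0.114). *sAPX* had log2 fold changes of -0.21 at 22°C (95% interval -0.43 to 0.01) and -0.25 at 44°C (-0.51 to 0.01), neither called, and was called at 22°C with TMM scaling (-0.44, edgeR adjusted p = 0.00623). It was also called at 22°C without replicate 1 of *cry1* (-0.32, adjusted p = 0.0343) and at 44°C without replicate 3 of WT (-0.38, adjusted p = 0.0432).

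Markers of green tissue were also lower in *cry1*. All 7 of 7 (*RBCS1A*, *RBCS3B*, *CAB2*, *LHCB2.1*, *RCA*, *GAPA*, *PSAD1*) were called lower in *cry1* at 22°C, beside 7.91% of all genes. At 44°C 6 of 7 were lower and *RCA* was higher, beside 18.3% and 9.19% of all genes. With TMM scaling 5 were lower at 44°C, beside 11.5% of all genes, and *LHCB2.1* was not called (adjusted p = 0.182, edgeR). All 7 were lower at 44°C than at 22°C in both genotypes, beside 64.7% of all genes in WT and 76.0% in *cry1*. With TMM scaling 6 of the 7 markers were lower in WT, beside 38.1% of all genes. In *cry1* 4 were lower and 3 higher, beside 39.5% and 36.0%. Their summed level ranged over 38672 to 39713 CPM in WT and 23429 to 24794 CPM in *cry1* at 22°C, and over 8582 to 10174 CPM in WT and 7321 to 7429 CPM in *cry1* at 44°C. In ratios computed after these values were seen, *APX4* held 552 ± 34.6 counts per 100000 counts of the 7 markers in WT at 22°C and 564 ± 15.8 in *cry1* at 22°C, with overlapping ranges. At 44°C it held 474 ± 4.90 in WT and 368 ± 13.2 in *cry1* (n = 3 each), with no overlap. *tAPX* went the other way, with 170.1 ± 9.98 counts per 100000 marker counts in WT and 229.7 ± 7.14 in *cry1* at 22°C, ranges apart, and 398 ± 48.5 and 415 ± 22.5 at 44°C, ranges overlapping. *sAPX* held 177 ± 19.0 in WT and 249.7 ± 31.6 in *cry1* at 22°C, ranges apart, and 195 ± 30.4 and 204 ± 21.3 at 44°C, ranges overlapping. The markers themselves differed between genotypes by unequal amounts, such as -1.66 for *CAB2* and -0.57 for *RCA* at 22°C (log2, *cry1* against WT). These ratios therefore cannot measure the amount of green tissue, and its part in these differences was not tested.

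*APX3* was also lower in *cry1*, with a log2 fold change of -0.25 at 22°C (SE 0.07, edgeR adjusted p = 0.00794) and -0.25 at 44°C (SE 0.07, adjusted p = 0.0125). With TMM scaling it was -0.48 at 22°C and -0.12 at 44°C, where the call was lost (adjusted p = 0.226). Without replicate 2 of *cry1* at 44°C the call at 44°C was lost as well (adjusted p = 0.0728). *APX6* had log2 fold changes of -0.20 at 22°C (95% interval -0.39 to -0.02, edgeR adjusted p = 0.0938) and -0.12 at 44°C (0.0088 with TMM scaling), and was called at 22°C with TMM scaling (-0.43, adjusted p = 0.00227).

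*APX1* was 1.39-fold higher in *cry1* at 22°C (log2 fold change 0.47, SE 0.11, edgeR adjusted p = 0.0035), a call lost with TMM scaling (0.24, adjusted p = 0.173). Leaving out replicate 1 of *cry1* at 22°C, the library with 908 CPM, brought the value to its lowest, 0.28, and the highest adjusted p among all left-out libraries was 0.0185. At 44°C the *APX1* value was 0.12 (95% interval -0.10 to 0.34). *APX5* was 1.94-fold higher in *cry1* at 22°C (0.95, SE 0.31, edgeR adjusted p = 0.0231) although the ranges overlapped, and the call was lost with TMM scaling (0.72, adjusted p = 0.112) and without replicate 2 or 3 of *cry1* or replicate 1 or 2 of WT at 22°C (adjusted p between 0.0728 and 0.0958). At 44°C the *APX5* value was 0.59 (95% interval -0.01 to 1.19), which was not called although the ranges were apart. Seed storage genes (*CRA1* and *CRC*, markers of another organ) were higher in *cry1* too, at a summed 57.7 to 347 CPM against 16.5 to 28.5 CPM in WT at 22°C and 47.7 to 102 against 2.59 to 10.2 CPM at 44°C, and their part in these differences was not tested.

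**Figure D4:**
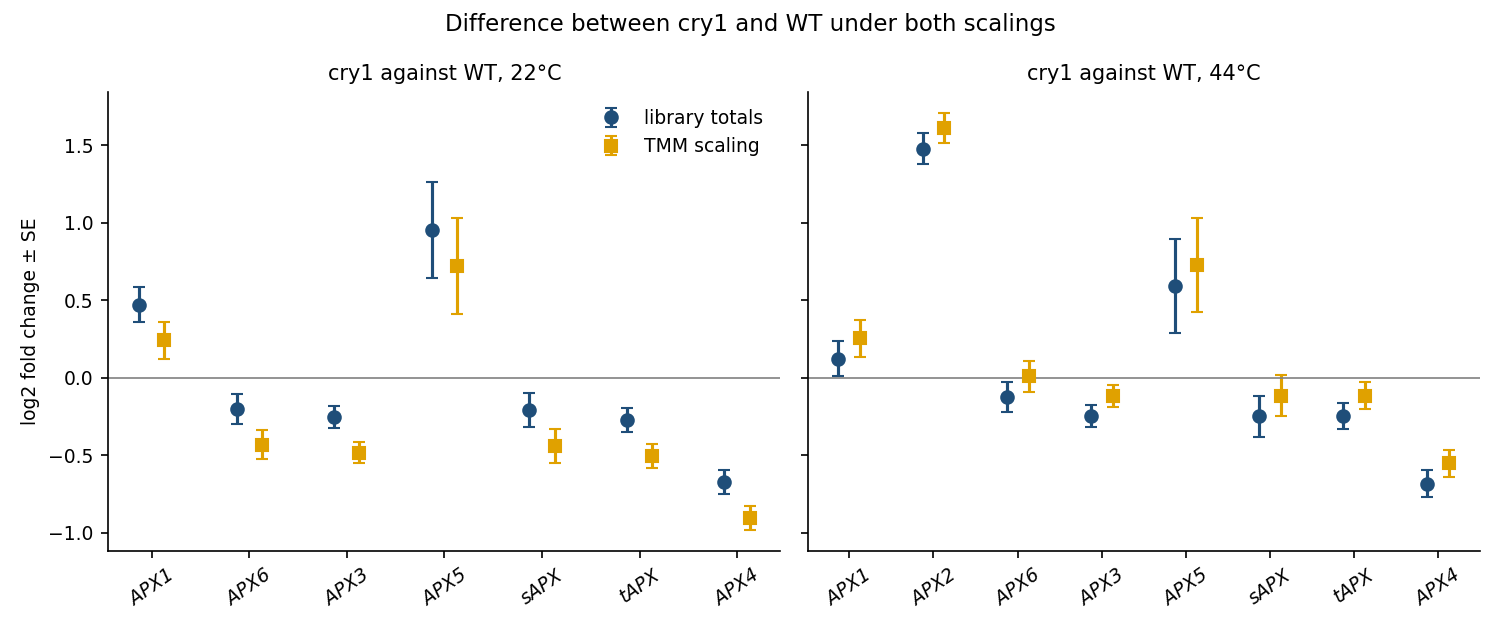
Log2 fold change of *cry1* against WT (± SE) at 22°C for the 7 members other than *APX2*, and at 44°C for all 8, with library totals (circles) and TMM scaling (squares). *APX2* stands highest at 44°C (1.48 and 1.61), and *APX4* lies lowest at both temperatures.

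Whether heat acted differently in *cry1* was asked by the interaction of genotype and temperature. With library totals, 0 of 8 members were called (edgeR quasi-likelihood test), beside a background of 29.5% (4.09% higher and 25.4% lower). At an unadjusted p under 0.05 there was 1 member, *APX1* (-0.35, adjusted p = 0.108). Without replicate 3 of *cry1* at 22°C the *APX1* interaction was called (-0.45, adjusted p = 0.0343). The log2 intervals of the interaction were -0.24 to 0.22 for *APX4*, -0.20 to 0.25 for *tAPX*, -0.38 to 0.30 for *sAPX* and -0.19 to 0.20 for *APX3*. With TMM scaling and by DESeq2, 4 members were called, each with the less negative or more positive response in *cry1*: *APX3* (0.37 with TMM), *APX4* (0.35), *APX6* (0.44) and *tAPX* (0.39), beside 11.5% of all genes higher and 6.01% lower with TMM. For *APX2* the interaction could not be read, because its 22°C counts set the value. It was -0.21 in the edgeR fit, 1.27 in limma on log2(CPM + 0.5) and 0.75 in limma on log2(CPM + 0.1). The SE derived from the edgeR test was 0.56 with library totals and 1.71 with TMM scaling, so no interval is given.

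The partners of the ascorbate peroxidases in the ascorbate-glutathione cycle were mostly lower after heat on library totals. They were listed with *GSH1* and *GSH2*, which make glutathione. Of these 12 genes, 9 were called lower and 2 higher (*MDAR2* and *GSH1*) in WT, beside 64.7% and 16.1% of all genes. In *cry1* 11 were called lower, beside 76.0% of all genes, and the remaining gene, *DHAR2*, held no counts there and could show no response. The median log2 fold change of the 12 was -0.88 in WT and -1.02 in *cry1*, beside -0.91 and -1.29 for all genes. The *cry1* median counts *DHAR2* as unchanged. With TMM scaling the counts were 6 higher and 5 lower in WT and 5 higher and 3 lower in *cry1*. Of all genes, 35.6% were higher and 38.1% lower in WT with that scaling, and 36.0% and 39.5% in *cry1*. *GR2*, the chloroplast and mitochondrial glutathione reductase, fell from 271 ± 11.1 to 80.2 ± 10.9 CPM in WT (log2 fold change -1.76, edgeR adjusted p = 2.49e-13, n = 3). *MDAR2*, a monodehydroascorbate reductase, rose in WT from 86.1 ± 5.65 to 134 ± 6.64 CPM (0.64, edgeR adjusted p = 5.85e-07) and fell in *cry1* by 0.36 on the log2 scale with library totals (adjusted p = 0.000337), where TMM scaling gave a higher level at 44°C (0.82, adjusted p = 1.25e-08).

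*DHAR2* (AT1G75270), a cytosolic dehydroascorbate reductase, was the member of the cycle that differed most between genotypes. It held 24.0 to 33.6 CPM in the 6 WT libraries, while none of the 6 *cry1* libraries held a count for it. With 3 counts over the group as the floor, it was at least 561-fold lower in *cry1* at 22°C (1110 WT counts) and at least 496-fold lower at 44°C (1058 counts). It lies in a run of 7 neighbouring genes of the table, AT1G75250 to AT1G75300 (chromosome 1, 28244317 to 28257236, TAIR10.1), that held 1 count in all 6 *cry1* libraries together and 7513 in the WT libraries. The gene just before this run, AT1G75240, held 108 counts in *cry1* and 712 in WT. Around *CRY1*, a run of 3 genes, AT4G08900 to AT4G08920, held 13 counts in *cry1* and 15259 in WT. *DHAR2* and both runs were singled out after their values were seen. With 1 mutant line, a feature of the line at this locus and an effect of losing CRY1 cannot be told apart. *DHAR1*, also a cytosolic dehydroascorbate reductase, was higher in *cry1*, with a log2 fold change of 0.47 at 22°C (edgeR adjusted p = 0.000171) and 0.89 at 44°C (2.64e-07), from 183 ± 11.6 CPM in WT to 254 ± 5.73 CPM at 22°C and from 119.7 ± 11.8 to 222 ± 10.6 CPM at 44°C (n = 3 each).

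Of 10 genes of ascorbate synthesis, 9 were called lower and 1 higher with heat in each genotype. Of all tested genes, 64.7% were lower in WT and 76.0% in *cry1*. The median log2 fold change of the 10 was -0.89 and -1.33, beside -0.91 and -1.29 for all genes. With TMM scaling 5 of the 10 were higher and 5 lower in WT, beside 35.6% and 38.1% of all genes. In *cry1* 4 were higher and 2 lower, beside 36.0% and 39.5%. *VTC4*, the L-galactose 1-phosphate phosphatase, fell from 37.6 ± 2.103 to 2.49 ± 0.510 CPM in WT (log2 fold change -3.91, edgeR adjusted p = 1.56e-14, n = 3). *L-GalDH*, the dehydrogenase of the step after it, rose from 34.8 ± 1.296 to 54.4 ± 3.08 CPM in WT (0.64, edgeR adjusted p = 2.81e-07) and by 0.73 on the log2 scale in *cry1*. All 4 genes of ascorbate oxidation and transport were lower with heat in both genotypes, beside the same 64.7% and 76.0% of all genes. With TMM scaling 3 of 4 were lower in WT and 4 in *cry1*, beside 38.1% and 39.5% of all genes. The median log2 fold change of these 4 was -2.46 in WT and -2.39 in *cry1*. Among them the ascorbate oxidase AT5G21100 fell from 72.5 ± 0.646 to 1.91 ± 0.731 CPM in WT (log2 fold change -5.25, edgeR adjusted p = 3.22e-16). Between genotypes, 1 synthesis gene was higher and 4 lower in *cry1* at 22°C, beside 33.0% and 7.91% of all genes (edgeR). At 44°C 0 were higher and 3 lower, beside 9.19% and 18.3% of all genes. With TMM scaling 0 were higher and 6 lower at 22°C, beside 8.41% and 13.6% of all genes. At 44°C with TMM scaling 0 were higher and 1 lower, beside 14.8% and 11.5%.

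Of 8 regulators known for *APX* genes, 5 were called higher with heat in WT and 6 in *cry1*, beside 16.1% and 11.8% of all genes (edgeR). With TMM scaling 7 were higher and 0 lower in both genotypes, beside 35.6% of all genes higher in WT and 36.0% in *cry1*. On library totals 1 regulator was lower in each genotype, beside 64.7% and 76.0% of all genes. The lower one was *HSFA1A*, a factor of the class that starts the heat response, at -0.70 in WT and -1.26 in *cry1* with library totals and at 0.12 and -0.07 with TMM scaling, where neither was called. *HSFA2*, the heat-inducible factor known to act on *APX2*, stood at 1.25 ± 1.00 CPM in WT at 22°C and at 2885 ± 99.9 CPM at 44°C (edgeR adjusted p = 6.08e-10). In *cry1* at 44°C it stood at 3519 ± 184 CPM, with a log2 fold change against WT of 0.29 (SE 0.22, edgeR adjusted p = 0.373). This was not called although the ranges at 44°C were apart, at 2793 to 2991 CPM in WT and 3335 to 3704 CPM in *cry1*. The *APX2* counts per 1000 *HSFA2* counts at 44°C were 13.05, 12.99 and 11.7 in WT and 31.5, 30.0 and 24.8 in *cry1*, with no overlap. *HSFA1E* and *HSFA1D*, of the class that starts the heat response, were both higher in *cry1* at 44°C, at 66.5 ± 5.18 against 25.4 ± 2.46 CPM (log2 fold change 1.39, edgeR adjusted p = 6.24e-09) and at 16.7 ± 1.66 against 8.95 ± 1.19 CPM (0.90, adjusted p = 0.000211). These were the 2 of 8 regulators called in that comparison, beside 9.19% of all genes higher and 18.3% lower. With TMM scaling 3 were called, all higher, beside 14.8% of all genes higher and 11.5% lower.

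For each member, the genes outside the family whose log2(CPM + 1) followed it most closely over the 12 libraries were listed. These are descriptions over libraries that share treatment and depth. The 3 closest to *APX2* were *FTSH6*, a thylakoid protease known for heat (Pearson r = 0.998), AT1G67365 (r = 0.998) and AT5G61510 (r = 0.998). *FTSH6* stood at 0.0269 CPM in WT at 22°C and at 14.7 CPM at 44°C, and in *cry1* at 0.0525 and 25.5 CPM. The closest to *APX4* were *PSBQA*, of the oxygen-evolving complex (r = 0.999), *DRT112*, a plastocyanin (r = 0.998), and *RPL21C*, a plastid ribosomal protein (r = 0.998). *PSBQA* and the photosystem I subunit gene *PSAD-1* also led the list of *tAPX* (r = 0.992 for both), followed by *PUB26*, a ubiquitin ligase (r = 0.992). *MIND*, for plastid division, led that of *sAPX* (r = 0.995), with AT3G04140 and *COP1*, a regulator of light signalling, next (r = 0.995 for both). *APX3* was followed most closely by AT3G54210 and *GAPA*, a Calvin cycle enzyme (r = 0.985 for both). The closest genes of *APX1* (AT1G30640, r = 0.919), *APX5* (AT3G24450, r = 0.930) and *APX6* (*MEE51*, r = 0.862) were less alike.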

How the data were processed

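RNA of 12 seedling libraries was sequenced. The labels give polyA RNA and an mRNA kit but also rRNA depletion, and the methods give rRNA depletion of total RNA, so how the RNA was selected is uncertain. The authors aligned reads to TAIR10 (TopHat2 2.0.11 in the submitters' processing notes) and the study's methods name Trimmomatic and RSEM. The deposited table holds expected counts for 26891 genes, which were rounded to whole numbers. 0 columns were left unmapped. Library totals ranged from 10539271 to 21752824 counts. The methods describe the 3 replicates of a group as independent biological replicates.

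Groups came from the sample labels. Genes passing filterByExpr (minimum count 10, 20516 genes) were tested with edgeR 4.0.16 under R 4.3.3 (the quasi-likelihood test in its robust form, 1 term per group, all 12 libraries, library totals as scale) and Benjamini-Hochberg adjustment over all tested genes, with calls at an adjusted p under 0.05. Alternatives were TMM and median-ratio scaling, DESeq2 1.42.0, limma 3.58.1 on log2(CPM + 0.5) and log2(CPM + 0.1), no filter, a mean CPM of at least 1 in a group, only the groups compared, a replicate block and leaving out each library. FPKM used union exon lengths and sequences of TAIR10.1 (RefSeq). Scripts were tested on simulated data.

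All 8 members were named, with genes of fixed pathway and marker lists as examples and the 3 genes most alike to each member. Members and lists were chosen with earlier results of these data known. Intervals on counts cover counting error only.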

Additional observations from a re-analysis of the deposited data

How the results depend on the processing

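TMM scaling, median-ratio scaling and DESeq2 gave the same counts of members called: with heat 5 higher and 2 lower in WT and 6 higher and 2 lower in *cry1*, for *cry1* against WT 0 higher and 5 lower at 22°C and 2 in all, 1 lower, at 44°C, and 4 in the interaction, all higher. Fitting only the groups compared gave 1 higher at 22°C (*APX5* lost, adjusted p = 0.0918) and 2 higher at 44°C (*APX5* gained, 0.0173), and lost *tAPX* at 44°C (0.0694) and *APX1* with heat in *cry1* (0.0737). With limma on log2(CPM + 0.5) 1 member, *APX2*, was called in the interaction, higher. With limma on log2(CPM + 0.1), 3 were higher at 22°C (*APX2* gained, 0.0312) and *APX1* with heat in *cry1* was lost (0.0502). Directions turned with TMM, median-ratio and DESeq2 for heat in WT at *APX6* (0.75 in each) and *APX3* (0.46 in each), for heat in *cry1* at *APX1* (0.92, 0.93 and 0.93), *APX3* (0.83, 0.84 and 0.84) and *tAPX* (0.33, 0.35 and 0.35), and at 44°C for *APX6* (0.0088, 0.0076 and 0.0078). In the interaction they turned for *APX1* (0.014, 0.029 and 0.029), *APX5* (0.0042, 0.017 and 0.018), *sAPX* (0.32, 0.34 and 0.34), *APX4* (0.35, 0.37 and 0.37, and 0.00026 with limma at 0.5) and *APX2* (0.17 with TMM, 0.18 with median-ratio, 1.27 and 0.75 with limma at 0.5 and 0.1). These 3 scalings centre most genes near 0 by construction.

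Leaving out 1 library at a time gave 5 to 6 members called with heat in WT (1 to 2 higher, 4 lower), 5 to 6 in *cry1* (1 higher, 4 to 5 lower), 4 to 6 at 22°C (1 to 2 higher, 2 to 4 lower), 3 to 4 at 44°C (1 higher, 2 to 3 lower) and 0 to 1 in the interaction (0 higher, 0 to 1 lower). Values without a call crossed 0 for heat in *cry1* at *APX5* (-0.12 to 0.27) and *APX6* (-0.036 to 0.072), and in the interaction at *APX2* (-2.24 to 0.30), *APX3* (-0.033 to 0.056), *sAPX* (-0.17 to 0.068), *tAPX* (-0.028 to 0.070) and *APX4* (-0.058 to 0.062). *APX2* at 22°C, with 0 to 2 counts a library, is limited by depth.

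With the replicate number as a block, the members called were 1 higher and 4 lower with heat in WT, 1 and 5 in *cry1*, 2 and 3 at 22°C, 1 and 3 at 44°C and 0 in the interaction, as without it. Deviations of same-numbered libraries correlated between -0.13 and 0.27, while pairs with different numbers reached -0.36 and 0.23 between genotypes at 22°C. With 3 libraries per group, these correlations cannot show whether same-numbered libraries belong together.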
